A study of Mus musculus with 96 samples.

Results

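The miR-1 and miR-206 family was followed in isolated mouse heart cells as 6 mature entries, which were picked by name from the 1978 mature entries of each count table: mmu-miR-1a-3p, mmu-miR-1a-1-5p, mmu-miR-1a-2-5p, mmu-miR-1b-5p, mmu-miR-1b-3p and mmu-miR-206-3p (the prefix is left out hereafter). All 6 had at least 1 count, as did 1561 of the 1978 entries. Small RNA was sequenced from hematopoietic cells (HCs), fibroblasts (FBs), cardiomyocytes (CMs) and endothelial cells (ECs) of adult male C57Bl/6J mice that carried no engineered allele according to the labels. Acute myocardial infarction (MI) was made by permanent ligation of the left anterior descending coronary artery, and cells were taken on day 1 (D1), D3, D7, D14 and D28. D0 stood for hearts without MI, from control mice that had no operation, so effects of surgery and of MI cannot be told apart. Each of the 24 combinations of cell type and day held 4 libraries, 96 in all, and each library came from RNA of 3 mice pooled together, or of 2 where a sample was missing.

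HCs were taken with CD45 beads, ECs with CD144 beads, FBs by plating and CMs by centrifugation, so each library is a preparation enriched for its cell type and can hold RNA of other cells. CM libraries were made from 500 ng of RNA with 14 PCR cycles, EC libraries from 50 ng with 16 cycles, and FB and HC libraries from 150 ng with 15 cycles. Libraries were prepared by cell type, so cell type and library batch cannot be told apart. The mice of each day came from several surgery sessions, but the labels do not tie a library to a session, so p-values measure the spread between these pools. The pools of all 4 cell types of a day were made from the same mice. No source used here says that equal replicate numbers mark the same mice, and the fits across cell types treat the libraries as independent.

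miR-1 is the best known muscle microRNA and the most abundant miRNA of heart muscle. It is made from a pair of loci that each also encode miR-133a, while miR-206 is made from a locus shared with miR-133b and is known chiefly from skeletal muscle, where it rises in regeneration. The 3p strands of miR-1 and miR-206 carry the same seed, the short 5′ stretch that pairs with target mRNAs, and the 5p strands are usually degraded.

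RefSeq (GRCm38.p6) held an entry for 2 of the 6 members. They are shown with miR-206-5p, the other arm of the same hairpin, because the comparison of arms and of hairpin reads turns on them. Capitals mark the seed, bases 2 to 8.

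mmu-miR-1a-1-5p: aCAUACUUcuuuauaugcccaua

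mmu-miR-206-3p: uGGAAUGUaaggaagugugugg

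mmu-miR-206-5p: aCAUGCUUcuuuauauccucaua

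In the Mir206 hairpin, on which the reads described further on were counted, capitals mark the 5p and the 3p arm.

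Mir206 hairpin: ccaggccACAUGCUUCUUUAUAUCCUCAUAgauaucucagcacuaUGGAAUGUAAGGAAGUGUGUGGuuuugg

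On GRCm38, miR-1a-1-5p lies at chr2:180389057-180389079 on the plus strand, inside Mir1a-1 (chr2:180389048-180389124), which overlaps no other gene of the GENCODE annotation and lies 9254 bases from Mir133a-2. miR-206-3p lies at chr1:20679055-20679076 and miR-206-5p at chr1:20679017-20679039, inside Mir206 (chr1:20679010-20679082, plus strand). Mir206 lies within the lincRNA gene Gm28653, as does Mir133b, 3686 bases away. The annotation places Mir1b over all 72 bases of Mir1a-2, on the opposite strand.

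The total count on mature miRNAs ranged from 3327351 to 24279105 in CMs, from 525651 to 29037628 in ECs, from 2217588 to 65588543 in FBs and from 18286 to 29504666 in HCs. Replicate 3 of HCs at D0 stood apart with its 18286 counts, of which 2385 were miR-1a-3p and 2 were miR-206-3p. Its share of miR-1a-3p, 13.0%, had a Clopper-Pearson 95% interval of 12.6 to 13.5%, which, like all counting intervals here, covers counting error only. By their medians over all days, marker miRNAs followed the labels. The 3 CM markers were miR-208a-3p, miR-208b-3p and miR-499-5p, made from introns of myosin genes. Their median summed level was 10507 CPM (counts per 1000000 mature counts) in CMs. It was 16.4 in FBs, 229.97 in ECs and 455 in HCs. At D0 alone the summed levels of CMs (993 to 1785 CPM) and HCs (735 to 1221 CPM) overlapped. The EC markers were miR-126a-3p and miR-126a-5p, and the FB markers miR-199a-5p, miR-199b-5p and miR-214-3p. The HC markers were miR-142a-3p, miR-142a-5p, miR-223-3p and miR-150-5p. The summed markers of ECs, FBs and HCs also had their highest median in their own cell type. Among them, miR-150-5p, an HC marker, had similar means in HCs (2586 CPM) and ECs (2544 CPM). The mural cell markers miR-143-3p and miR-145a-5p had their highest median sum, 44435 CPM, in ECs. The red cell markers miR-451a and miR-144-3p had theirs, 296 CPM, in FBs.

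miR-1a-3p dominated the CMs. It was the most abundant miRNA in all 24 CM libraries and took 29.2 to 70.7% of their mature counts. It was among the abundant miRNAs of ECs, with 2.00 to 16% and a rank of 1 to 13, and of HCs, with 2.56 to 13.0% and a rank of 1 to 10. It made up 0.0766 to 0.574% of the counts of FBs, with a rank of 30 to 63. In bulk preparations such as these, fewer cells of a type and less RNA per cell cannot be told apart. The plot of miR-1a-3p shares shows every library.

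**Figure D1:**
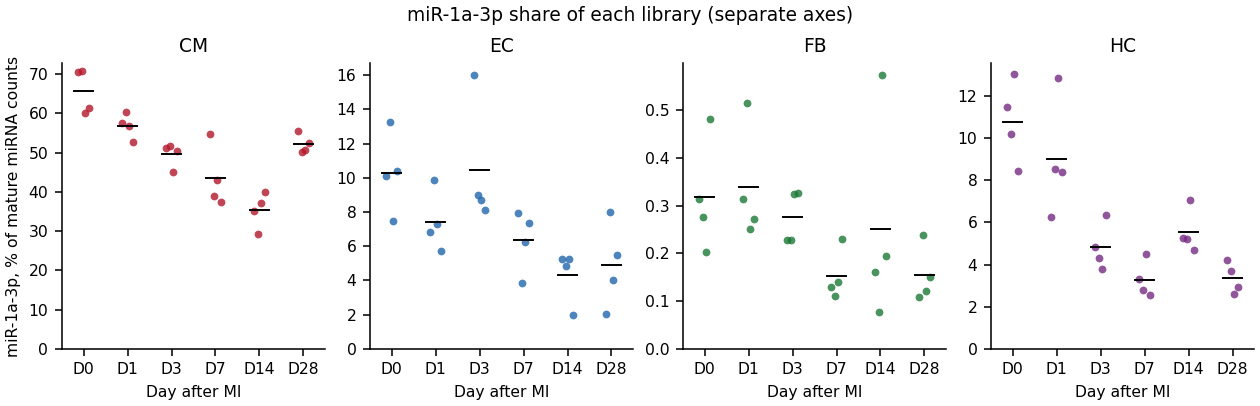
Share of mature miRNA counts taken by miR-1a-3p (y axis, percent, separate scale per panel) in each library (points) by day after MI (x axis) in CMs, ECs, FBs and HCs, with the mean of 4 libraries as a bar. CM libraries run from 70.7% at D0 down to 29.2% at D14, and FB libraries stay between 0.0766 and 0.574%.

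Across all 96 libraries, with the counts scaled by the trimmed mean of M-values (TMM) and averaged over the days, miR-1a-3p was higher in CMs than in ECs by 4.30 (SE 0.17), than in HCs by 5.45 (SE 0.18) and than in FBs by 9.37 (SE 0.21) on the log2 scale. ECs exceeded HCs by 1.14 (SE 0.15), and HCs exceeded FBs by 3.92 (SE 0.16). The order was therefore CMs, ECs, HCs and FBs, and all 6 pairs passed edgeR's quasi-likelihood test, with the weakest adjusted p, between ECs and HCs, at 3.9e-11. The step from HCs to ECs was the fragile one: at D0 alone it was 0.69 with an adjusted p of 0.11, and with library size as the only scaling 0.32 with an adjusted p of 0.018.

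By its mature counts, miR-206-3p had the same order at a far lower level. Its mean over 24 libraries was 277 CPM in CMs (range 188 to 399.6), 83.6 CPM in ECs (28.5 to 176), 51.1 CPM in HCs (18.7 to 113) and 7.56 CPM in FBs (1.71 to 25.0). The log2 difference between CMs and FBs was 7.15 (SE 0.18) for miR-206-3p, against 9.37 for miR-1a-3p. The mir-206 hairpin, counted from a second alignment, did not have this order. Scaled like CPM, its mean was highest in FBs (1.046), against 0.155 in CMs, 0.208 in ECs and 0.128 in HCs. It was not tested whether reads of miR-1a-3p are part of the counts listed for miR-206-3p. miR-1b-5p followed miR-1a-3p, with means of 58662, 11711, 7166 and 306 CPM in CMs, ECs, HCs and FBs. Whether reads of miR-1a-3p are part of the miR-1b-5p counts was not tested either. The remaining members were rare: the 96 libraries held 1707 counts of miR-1a-1-5p, 665 of miR-1a-2-5p and 483 of miR-1b-3p, against 192463465 of miR-1a-3p.

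Most miRNAs differed between cell types, so the counts of called members are to be read beside the share of all miRNAs called. All 6 members were tested in the fit of 96 libraries. 6 of 6 members were higher in CMs than in ECs, where 69.4% of the 712 miRNAs tested were called in either direction, and 6 of 6 were higher than in FBs (75.7% of all called). For miR-1b-3p both directions turned with library size as the only scaling, from 1.11 to -0.20 against ECs and from 1.23 to -0.28 against FBs, and neither of these calls remained. The call against ECs was also lost without CM D28 replicate 3 (1.03) or 4 (1.01). 5 of 6 were higher in CMs than in HCs (77.7% of all called), all but miR-1b-3p, whose difference was 0.15 (SE 0.32, adjusted p = 0.69), and which by library size alone was lower in CMs by edgeR's test (-1.96, adjusted p = 1.4e-10). 4 of 6 were higher in ECs than in FBs (71.8% of all called), of which miR-1a-2-5p (1.29) was lost with library size alone (1.09, adjusted p = 0.077) and without any of 16 of the 48 libraries compared (0.47 to 1.19), and miR-1a-1-5p, with groups of both cell types at 0 counts, got no usable estimate there. Between ECs and HCs 4 of 6 were called (77.7% of all called), with miR-1b-3p lower in ECs and miR-1a-3p, miR-1b-5p and miR-206-3p higher. 6 of 6 were lower in FBs than in HCs (85.7% of all called), of which miR-1a-2-5p (-0.70) was lost without any of 11 of the 48 libraries (-0.68 to -0.56).

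In CMs, miR-1a-3p was highest without MI, lowest at D14 and partly restored at D28. It took 70.6, 70.7, 60.2 and 61.4% of the counts in the 4 libraries at D0 and 35.1, 29.2, 37.1 and 39.9% at D14. At D28 it took 55.4, 50.1, 50.7 and 52.4%. The D0 libraries lay above all D3, D7, D14 and D28 libraries, and the lowest D0 library (60.2%) lay just under the highest D1 library (60.3%). The mean was 65.7% ± 5.71 (SD, n = 4) without MI and then, over D1, D3, D7, D14 and D28, 56.8% ± 3.18, 49.6% ± 3.13, 43.5% ± 7.74, 35.3% ± 4.53 and 52.1% ± 2.37.

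How far miR-1a-3p fell depended on the scaling. TMM factors of the CM libraries were 0.289 to 0.357 at D0 and 1.91 to 2.04 at D14. On the TMM scale the log2 change of miR-1a-3p from D0 was -1.30 (SE 0.30, adjusted p = 0.0076) for D1, -2.33 (SE 0.31) for D3, -2.84 (SE 0.32) for D7, -3.51 (SE 0.33, adjusted p = 5.1e-08) for D14 and -2.01 (SE 0.31) for D28, by edgeR's quasi-likelihood test. Scaled by library size alone it was -0.21, -0.41, -0.60, -0.90 and -0.33 on the same days, and D1 no longer passed (adjusted p = 0.13). With library sizes counted without the 6 members it was -0.76, -1.24, -1.57, -2.17 and -1.10. From TMM to library size alone, the median change of all 484 miRNAs tested in CMs moved from 0.20 to 1.42 at D1 and from 0.41 to 2.99 at D14.

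miR-1b-5p and miR-206-3p moved with miR-1a-3p in CMs. miR-206-3p had 378 CPM ± 21.5 (SD, n = 4) at D0 and 204 CPM ± 12.8 at D14, with no D14 library (188 to 218) as high as any D0 library (348 to 399.6). On the TMM scale its log2 change was -1.39, -2.36, -2.78, -3.51 and -2.31 on the 5 days, and that of miR-1b-5p was -1.37, -2.38, -2.83, -3.56 and -2.22. These 3 members had an adjusted p under 0.05 on all 5 days, and with library size alone miR-206-3p, like miR-1a-3p, no longer passed at D1 (-0.35, adjusted p = 0.13). The mir-206 hairpin in CMs, scaled like CPM, was 0.178 ± 0.158 at D0 and 0.142 ± 0.184 at D14. With 10 and 3 counts it was too rare to show whether it fell. The fall of miR-206-3p in CMs therefore rests on mature counts, in which reads of miR-1a-3p were not tested for. They were not tested for in the counts of miR-1b-5p either, so the calls of these members need not be separate. Of the 5 members tested in CMs, 3 were called at D1 (25.0% of all miRNAs called), 3 at D3 (55.2%), 4 at D7 (69.0%), 5 at D14 (67.1%) and 3 on D28 (54.3%), counting both directions.

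None of the other muscle miRNAs tested fell in CMs, and from D7 on most of them rose. Of 11 entries from miR-133, miR-208 and miR-499 and the 5p arm of miR-206, 9 were tested, and 1, 4, 8, 9 and 8 of them were higher than at D0 on D1, D3, D7, D14 and D28, with none lower. Over all miRNAs tested, 13.6, 31.8, 38.8, 38.0 and 29.5% were called higher on these days. By library size alone 8, 9, 9, 9 and 9 of the list were higher, beside 59.3, 76.4, 80.2, 83.1 and 69.4% of all miRNAs tested. Their median change at D14 was 1.60, against 0.41 for all miRNAs tested. miR-133a-3p, which is transcribed together with miR-1, had 391 CPM ± 345 (SD, n = 4) at D0 and 6871 CPM ± 1258 at D14, a log2 change of 1.54 (SE 0.47, adjusted p = 0.0060) on the TMM scale. miR-499-5p, from an intron of a myosin gene, had 1199.9 CPM ± 301 at D0 and 11789 CPM ± 1170 at D14, a change of 0.70 (SE 0.21, adjusted p = 0.0056). miR-208b-3p, from the gene of beta myosin heavy chain, rose by 4.31 (SE 0.52) at D14. The list is defined by name, was chosen with earlier results of these data known, and includes the 3 CM markers, whose summed level was 993 to 1785 CPM at D0 and 12773 to 17535 CPM at D14. It holds both arms of single hairpins. In each library miR-133b-3p had 87.6 to 100% of the counts of miR-133a-3p. Counts of the list in any cell type are therefore not counts of separate miRNAs.

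**Figure D2:**
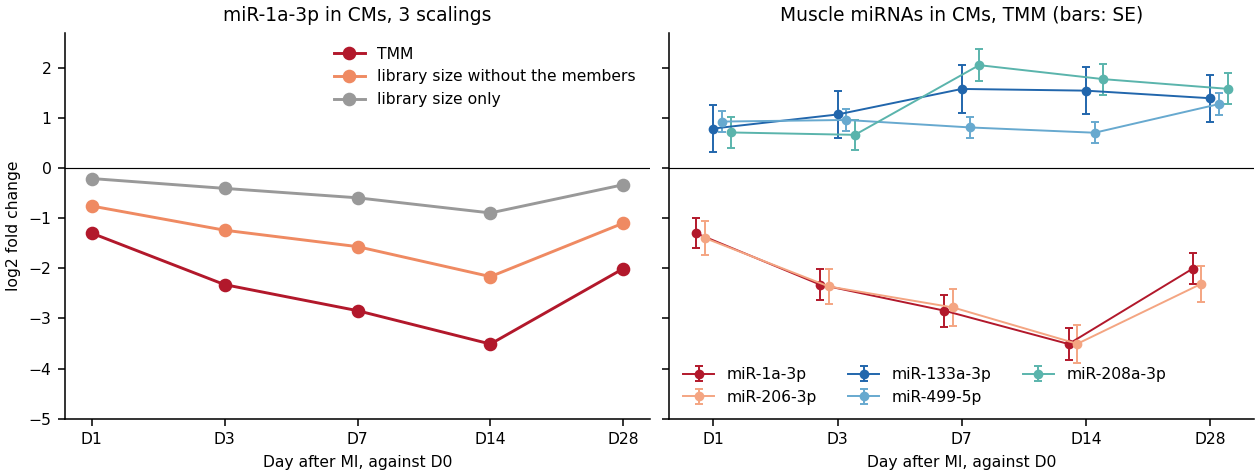
Log2 fold change against D0 (y axis) by day after MI (x axis) in CMs. On the left, miR-1a-3p under 3 scalings of the counts: at D14 the value is -3.51 with TMM, -2.17 with library sizes that leave out the members and -0.90 with library size alone. On the right, miR-1a-3p and miR-206-3p lie below 0 and miR-133a-3p, miR-499-5p and miR-208a-3p above 0 on all 5 days on the TMM scale (points are estimates, bars are SE).

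The ratio of 2 counts of one library does not depend on its scaling. In CMs at D0, 782 to 3381 counts of miR-1a-3p were found per count of miR-133a-3p, with a median of 2814. The median ratio was 645 at D1, 205 at D3, 77.4 at D7 and 50.7 at D14, and 123 for D28. All libraries from D3 on lay below the lowest D0 library, and the log2 ratio differed from that of D0 by -3.59, -4.81, -5.36 and -3.74 for D3, D7, D14 and D28. Each of these 4 comparisons gave the smallest p that 4 libraries against 4 allow in a two-sided exact permutation test, 0.0286, which became 0.057 after adjustment over the 20 comparisons of this ratio. Against miR-499-5p the median ratio in CMs went from 537 at D0 to 30.2 at D14, with no overlap with D0 on any of the 5 days (exact permutation p = 0.0286 each, 0.095 after adjustment over 20).

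The CMs without MI stood apart from the other cell types in this ratio. There were 86.2 to 107 counts of miR-1a-3p per count of miR-133a-3p in ECs at D0, 211 to 248 in FBs and 140 to 147 in HCs, all below the 782 of the lowest CM library at D0. By D14 the CM ratio (48.8 to 57.3) was close to that of ECs (24.1 to 56.1) and lower than in FBs (129 to 199.3) and HCs (111 to 172). Within HCs it stayed between 101 and 203 in all 24 libraries.

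**Figure D3:**
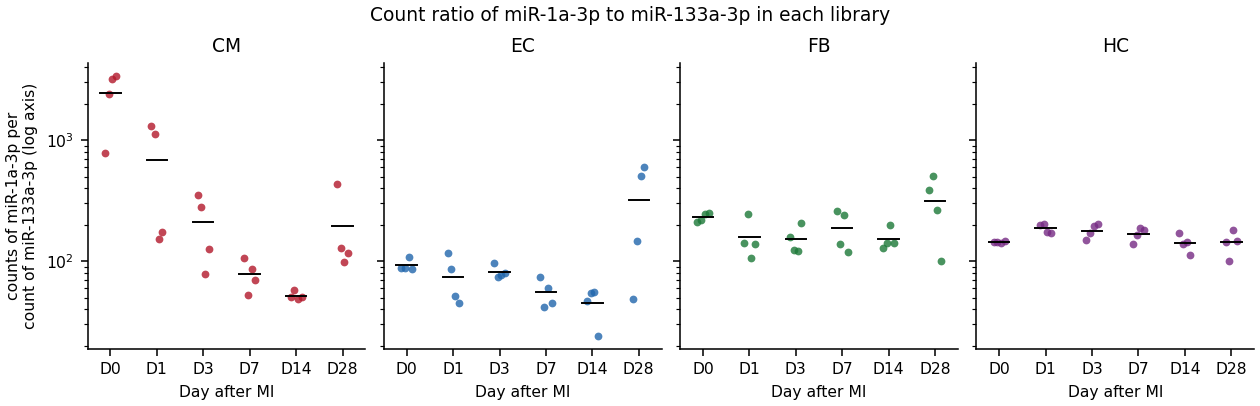
Counts of miR-1a-3p per count of miR-133a-3p (y axis, log scale) in each library (points) by day after MI (x axis) in the 4 cell types, with the mean of 4 libraries as a bar. CM libraries run from 782 to 3381 at D0 and from 48.8 to 57.3 at D14, and HC libraries stay between 101 and 203.

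In HCs, miR-1a-3p fell after MI. It took 11.5, 10.2, 13.0 and 8.45% of the counts at D0, 3.32, 2.80, 4.48 and 2.56% at D7 and 4.20, 3.72, 2.59 and 2.95% at D28. From D3 on, no library reached the lowest library of D0. The log2 change on the TMM scale was -1.58 (SE 0.21), -2.01 (SE 0.21), -1.18 (SE 0.20, adjusted p = 0.00013) and -1.86 (SE 0.21) for D3, D7, D14 and D28 by edgeR's test, and -1.60, -2.04, -1.20 and -1.88 without the shallow replicate 3 of D0. For D1 it was -0.57 (adjusted p = 0.021), a call that was lost with library size alone (-0.26, adjusted p = 0.32), with DESeq2 (-0.41, adjusted p = 0.11), and without D0 replicate 1 (-0.51), D1 replicate 1 (-0.43) or D1 replicate 4 (-0.51).

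miR-206-3p in HCs had 86.2 CPM ± 27.6 (SD, n = 4) at D0, 25.2 ± 3.49 at D7 and 23.5 ± 5.01 at D28. Its log2 change on the TMM scale was -1.10, -2.06, -1.30 and -2.04 for D3, D7, D14 and D28. Of the 5 members tested in HCs, 2 were called at D1 (54.3% of all miRNAs called), 3 at D3 (59.0%), 3 at D7 (49.5%), 3 at D14 (28.1%) and 4 on D28 (24%), all of them lower. The other muscle miRNAs fell as well: 4, 6, 7, 5 and 6 of the 7 tested were lower on D1 to D28, and 1 was higher at D14 (with library size alone 0, 5, 6, 4 and 6 were lower). The summed CM markers were 735 to 1221 CPM in HCs at D0, 235 to 372 at D7 and 207 to 409 at D28, none of them at 0, and their part in the decrease of miR-1a-3p was not tested.

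In ECs, miR-1a-3p was lower late after MI, with wide spread. It took 10.1, 13.2, 7.48 and 10.4% at D0, 5.26, 4.83, 5.27 and 2.00% at D14 and 2.05, 8.01, 4.02 and 5.47% at D28. The D14 libraries lay below all D0 libraries, and 1 D28 library lay within the range of D0. The log2 change was -1.42 (SE 0.39, adjusted p = 0.013) at D14 and -0.92 (SE 0.38, adjusted p = 0.0498) at D28 by edgeR's test. Without D14 replicate 4, the library with 2.00%, the D14 change was -1.16 with an adjusted p of 0.051. The study left a library of ECs at D28 out of its own analyses without naming it. The D28 call was lost without replicate 3 of D28, the library farthest from the others of its group (-0.75, adjusted p = 0.14), without D28 replicate 1 (-0.81) or D0 replicates 1 (-0.94), 2 (-0.80) or 4 (-0.90), and with DESeq2 (-0.84, adjusted p = 0.070).

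Of the 4 members tested in ECs, 0 were called at D1 (0% of all miRNAs called by edgeR), 0 at D3 (17.6%) and 0 at D7 (22.6%), where miR-1a-3p changed by -1.02 with an adjusted p of 0.055. At an unadjusted p under 0.05 there were 0, 0 and 2 members on these days, and DESeq2 called 0, 0 and 1. Over all 421 miRNAs at D1, 17 had an unadjusted p under 0.05 and DESeq2 called 5. At D14, 3 of 4 members were lower (14.5% of all called), and all 3 calls were lost without D14 replicate 4, where miR-1b-5p was -0.996 (adjusted p = 0.11) and miR-206-3p -0.93 (adjusted p = 0.15). miR-1b-5p was also lost without D0 replicate 2 (-1.12, adjusted p = 0.074). miR-206-3p, with an adjusted p of 0.04995, was lost by library size alone (-0.94, adjusted p = 0.058) and without any of 6 of the 8 libraries compared, D0 replicates 1 to 4 and D14 replicates 2 and 4 (-1.21 to -0.93, lowest of these adjusted p 0.059). At D28 2 of 4 members were lower (47.0%). The second of these was miR-1a-1-5p, which had 2 to 44 counts in the D0 libraries and 0 in all 4 of D28, at least 5.03-fold lower if 3 counts over the group are taken as the floor. The summed CM markers in ECs were 312 to 576 CPM at D0 and 55.7 to 105 at D28, and 6 of 6 other muscle miRNAs tested were lower at D28.

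In FBs, miR-206-3p rose from D3 to D14 while miR-1a-3p fell at D7 and did not pass the test on other days. miR-1a-3p had 3191 CPM ± 1179 (SD, n = 4) without MI, 1530 ± 530 at D7, 2516 ± 2206 at D14 and 1547 ± 592 at D28. D0 and D7 overlapped (2033 to 4817 and 1112 to 2303 CPM), and D7 was the day that passed the test, with a log2 change of -1.27 (SE 0.39, adjusted p = 0.0099). miR-206-3p had 4.32, 2.71, 1.71 and 2.97 CPM at D0, from 83, 6, 30 and 38 counts. It had 12.5, 25.0, 11.8 and 8.94 CPM at D3, from 154 to 253 counts, and 12.4, 9.40, 8.03 and 24.2 CPM at D7, from 75, 36, 527 and 388 counts. At D14 it had 8.72, 4.83, 11.8 and 6.36 CPM, and at D28 3.71, 3.45, 2.72 and 2.40 CPM.

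All FB libraries of D3, D7 and D14 lay above all FB libraries of D0, while D1 (2.38 to 4.73 CPM) and D28 overlapped with D0. The 6 counts of D0 replicate 2 give 2.71 CPM with a Clopper-Pearson 95% interval of 0.993 to 5.89 CPM, which reaches above the lowest D14 library. The log2 change on the TMM scale was 1.96 (SE 0.38, adjusted p = 0.00015) at D3, 2.00 (SE 0.38, adjusted p = 0.00017) at D7 and 1.40 (SE 0.38, adjusted p = 0.0082) at D14 by edgeR's test. It was -0.01 at D1 and 0.21 at D28, neither of which passed. Without D0 replicate 2 the changes at D3, D7 and D14 were 1.97, 1.95 and 1.47, and these 3 calls held with library size alone, with DESeq2 and with each library left out (highest adjusted p of the last 0.046).

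Of the 3 members tested in FBs, 0 were called at D1 (7.99% of all miRNAs called), 1 at D3 (43.0%), 3 at D7 (45.6%), 1 at D14 (24.7%) and 0 on D28 (6.75%). At an unadjusted p under 0.05 there were 0 at D1 and 2 at D28, and DESeq2 called 0 on both days. miR-206-3p was the member called higher on D3, D7 and D14, and miR-1a-3p and miR-1b-5p were called lower at D7. The call of miR-1b-5p (-0.99, adjusted p = 0.045) was lost by library size alone (-0.78, adjusted p = 0.14) and without any of 6 of the 8 libraries compared, D0 replicates 1, 2 and 4 and D7 replicates 1, 2 and 3 (-0.996 to -0.822, highest adjusted p = 0.13). Of the 4 other muscle miRNAs tested in FBs, edgeR and DESeq2 each called 0 on every day, and their median change was -0.10 at D3, -0.65 at D7 and -0.07 at D14. At an unadjusted p under 0.05 there were 0 on each day up to D14 and 4 at D28, where the median change was -1.24. miR-133b-3p, which shares a locus with miR-206, changed by 0.18 (SE 0.44) at D3 and -0.67 (SE 0.45) at D7, but its counts cannot be kept apart from those of miR-133a-3p, of which they made 87.6 to 100% in each library. The summed CM markers in FBs were 17.0 to 28.3 CPM at D0, 12.6 to 44.3 at D3, 8.09 to 42.4 at D7 and 4.38 to 54.9 at D14, and their part in the values of miR-206-3p was not tested.

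The change of miR-206-3p in FBs was set against the mean change of CMs, ECs and HCs, a contrast chosen after its values were seen. On the log2 scale it exceeded that mean by 3.12, 3.70, 3.27 and 1.70 (SE 0.44 each, highest adjusted p = 0.0060) for D3, D7, D14 and D28 by edgeR's test, and by 0.93 (adjusted p = 0.28) for D1. The D28 difference went with falls in the other cell types, since in FBs alone the D28 change was 0.21 and did not pass. Of the 6 members, 0 were called in this contrast at D1 (2.81% of all miRNAs called), 1 at D3 (7.87%), 1 at D7 (30.9%), 4 at D14 (30.5%, with 2 of the 4 left by library size alone) and 1 on D28 (10.1%), and miR-206-3p was among them on the last 4 of these days. At D1, 2 members had an unadjusted p under 0.05, and DESeq2 called 0. With library size alone the differences of miR-206-3p from D3 on were 2.62, 3.01, 2.36 and 1.06.

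Set against miR-1a-3p of the same library, miR-206-3p kept to a narrow range in CMs, ECs and HCs, and in FBs it lay above that range from D3 to D14. Per 10000 counts of miR-1a-3p there were 4.14 to 8.22 counts of miR-206-3p in the 24 CM libraries, 8.90 to 17.0 in ECs and 5.49 to 12.2 in HCs. In FBs there were 6.16 to 13.7 at D0 and 9.20 to 11.8 at D1, which lie within the span of ECs and HCs. There were then 27.4 to 110 at D3, 57.0 to 105 at D7, 20.6 to 63.0 for D14 and 14.4 to 34.1 for D28. All FB libraries of D3, D7 and D14 lay above the highest EC library (17.0), while at D28 2 of them lay within the range of ECs. No FB library from D3 on was as low as the highest FB library at D0. The log2 ratio was higher than at D0 by 2.40, 3.16, 2.06 and 1.14 on D3, D7, D14 and D28, each with a two-sided exact permutation p of 0.0286, the smallest possible (0.036 after adjustment over the 5 days), and by 0.09 at D1 (exact permutation p = 0.77). The minimum of 5 counts per library that let this ratio be tested was set after the counts were seen. The adjustment covered the 5 FB days alone and left out the comparisons of this ratio in CMs and ECs. That is a narrower set than for the other ratios.

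The same ratio differed from D0 by -0.36 to 0.10 on the log2 scale in CMs and by -0.03 to 0.43 in ECs, and no day passed after adjustment over the 10 comparisons made in CMs and ECs (lowest adjusted exact permutation p = 0.095). Whether part of the counts listed for miR-206-3p in CMs are reads of miR-1a-3p was not tested. If each FB library held miR-206-3p at the mean CM ratio of 5.54 per 10000, it would hold 12.8 to 39.2 counts at D3 and 2.36 to 51.2 at D7. Above that level the FBs held 1.16 CPM ± 1.01 (SD, n = 4) without MI, and 13.0 ± 7.35, 12.7 ± 7.07, 6.54 ± 2.01 and 2.21 ± 0.64 on D3, D7, D14 and D28. The CM ratio was the lowest of the cell types. The mean ratio was 11.97 in ECs and 8.29 in HCs, against 9.53 in FBs at D0. These amounts therefore depend on the cell type chosen as the base, and other bases were not tried.

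The mir-206 hairpin, counted from a second alignment, rose in the same FB libraries. It had 2, 0, 1 and 1 counts at D0 and 4, 1, 5 and 0 at D1. It then had 28, 25, 13 and 13 counts at D3, 18, 10, 90 and 65 at D7, 23, 13, 32 and 33 at D14, and 8, 9, 3 and 14 on D28. Per 1000000 mature counts the mean was 0.060 ± 0.044 (SD, n = 4) without MI and 1.43 ± 0.82, 2.75 ± 1.10, 1.53 ± 0.15 and 0.43 ± 0.23 on D3, D7, D14 and D28, with no overlap between D0 and any of these 4 later days (two-sided exact permutation p = 0.0286 each, 0.036 after adjustment over the 5 days). At D1 it was 0.078 ± 0.074 (exact permutation p = 0.74). In CMs, ECs and HCs the hairpin had 0 to 11 counts in each library, and its mean level in any group was at most 0.518 per 1000000. The 5p arm of miR-206 had 1 count in all 96 libraries, in an EC library.

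**Figure D4:**
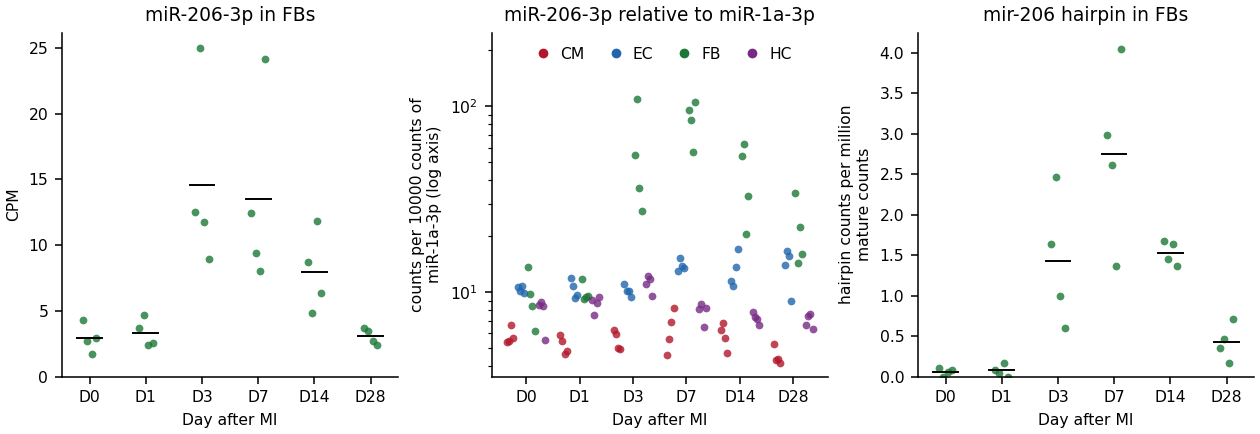
miR-206-3p by day after MI (x axis) in each library (points). The left panel gives CPM in FBs and the right panel the counts on the mir-206 hairpin per 1000000 mature counts in FBs, with the mean of 4 libraries as a bar. The middle panel gives counts of miR-206-3p per 10000 counts of miR-1a-3p (log scale) in the 4 cell types, where FB libraries reach 110 at D3 and 105 at D7 and CM libraries stay between 4.14 and 8.22.

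The change of the members in CMs was also set against the mean change of ECs, FBs and HCs. For miR-1a-3p the change in CMs minus that mean was -1.24 (SE 0.41, adjusted p = 0.012) for D3, -1.11 (SE 0.41, adjusted p = 0.021) for D7 and -2.27 (SE 0.42, adjusted p = 3.9e-06) for D14 on the TMM scale by edgeR's test, and D1 (-0.76) and D28 (-0.66) did not pass. With library size alone these 3 calls were lost and the differences were 0.04, 0.56 and -0.05, against 0.0027 for D1 and 0.93 (adjusted p = 0.022) for D28, so the direction of this contrast turned with the scaling on D1, D3, D7 and D28. The D3 call was also lost without CM D0 replicate 2 (-1.01), as was that of miR-1b-5p (-1.04), and the D7 call without CM D0 replicate 2 (-0.89), CM D7 replicate 2 (-0.97) or CM D7 replicate 4 (-0.97). Of the 6 members, 0 were called at D1 (20.5% of all miRNAs called), 3 at D3 (39.9%), 4 at D7 (44.8%), 4 at D14 (43.8%) and 1 on D28 (39.6%). At D1, 1 member had an unadjusted p under 0.05, and DESeq2 called 3. miR-1a-3p, miR-1b-5p and miR-206-3p made up the lower calls of D3, D7 and D14, miR-1a-2-5p was the member called higher at D7 and D14, and miR-206-3p was the member called at D28 (-1.39). With library size alone the D28 difference of miR-206-3p turned to 0.092 (adjusted p = 0.93), those of miR-1b-5p at D3 and D7 turned to 0.050 and 0.43, and of the lower calls that of miR-206-3p at D3 remained.

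miR-1b-5p was the member with the second highest count, and its counts went with those of miR-1a-3p. It had 22857189 counts, 11.9% of those of miR-1a-3p, and 9.33 to 25.7% in single libraries, with a median of 12.3%. The fraction was 9.33 to 14.3% in CMs, 9.80 to 16.02% in FBs, 9.92 to 13.8% in HCs and 11.0 to 25.7% in ECs, where both the lowest and the highest library were of D28. No comparison with D0 passed after adjustment over 20 (lowest adjusted exact permutation p = 0.19). The counting of strand is not given in the sources used here, and without it reads of Mir1a-2 and of Mir1b on its opposite strand cannot be told apart. It was not tested whether counts listed for miR-1b-5p are reads of miR-1a-3p. Its calls are therefore not to be read as separate from those of miR-1a-3p.

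Hairpin counts showed how far the loci share reads. In each library the hairpin mir-1a-1 had 98.1 to 100.2% of the counts of mir-1a-2 and 97.8 to 100.2% of those of mir-1b. The 3 hairpins were therefore close to 1 measurement, although Mir1b is annotated on the strand opposite to Mir1a-2. The mature entries were not duplicates: 0 of the 6 members had an entry with identical counts in all 96 libraries. miR-1b-3p, on the other arm of the mir-1b hairpin, had 77, 40, 119 and 247 counts in CMs, ECs, FBs and HCs, and unlike miR-1b-5p its mean level was 0.276 CPM in CMs and 0.772 CPM in HCs.

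The 5p arms of miR-1a were rare and, where they passed the test in CMs, rose while the 3p arm fell. miR-1a-1-5p had 16, 5, 7 and 8 counts at D0 and 44, 38, 26 and 251 at D14. miR-1a-2-5p had 3, 1, 2 and 2 counts at D0, 38, 38, 33 and 67 at D7 and 18, 11, 18 and 87 at D14. Each library of D7 and D14 held more raw counts of both arms than any library of D0. After TMM scaling this held for miR-1a-2-5p, but miR-1a-1-5p overlapped with D0 on both days. At D14 miR-1a-1-5p had 3.74 to 8.57 CPM on that scale, against 1.22 to 4.51 at D0. Its log2 change at D7 was 0.13 (SE 0.38, adjusted p = 0.78 by edgeR's test). With 1 to 3 counts in each D0 library, miR-1a-2-5p passed the low-count filter through later days, where it was higher. Its test is therefore a description. On the TMM scale miR-1a-2-5p rose by 1.97 (SE 0.61, adjusted p = 0.0063) at D7 and 2.17 (SE 0.61, adjusted p = 0.0035) at D14, and miR-1a-1-5p rose by 1.26 (SE 0.38, adjusted p = 0.0060) at D14, by edgeR's test. The last call was lost without D14 replicate 4, the library with 251 counts (0.73, adjusted p = 0.091).

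With library size alone the rises at D14 were 3.82 for miR-1a-1-5p and 4.70 for miR-1a-2-5p. Relative to miR-1a-3p the log2 ratio of miR-1a-1-5p was higher than at D0 by 1.83, 2.07, 3.13, 4.75 and 3.04 on the 5 days, a description without a test, since 3 of the D0 libraries held fewer than 10 counts. In HCs the log2 change of miR-1a-1-5p at D28 was -1.32 (SE 0.39, adjusted p = 0.014), with 39, 29, 0 and 34 counts at D0 and 8, 16, 11 and 9 at D28. It was lost without D0 replicate 1 (-1.20, adjusted p = 0.055) and with DESeq2 (-1.35, adjusted p = 0.098). In FBs it had 0 counts in the 4 D0 libraries, which allows up to 0.058 CPM over the group, and 30 counts in all 24. Over all libraries miR-1a-2-5p had 95 counts in HCs, 56 in FBs and 40 in ECs.

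The miRNAs whose group means were most like those of miR-1a-3p over the 24 groups, among 296 with a mean of at least 10 CPM, were miR-378d, miR-378b, miR-378c, miR-378a-3p and miR-490-3p, with Pearson's r of 0.98, 0.97, 0.97, 0.97 and 0.97 on the log2 TMM scale. The 5 most like miR-206-3p were the same miRNAs, with r of 0.95 each. The groups of one cell type share a library batch and the 24 points are dominated by the cell types, so these values are descriptions. Over the 6 day means of CMs, miR-30c-2-3p, let-7f-5p, miR-423-3p, miR-192-5p and let-7a-5p were most like miR-1a-3p (r 0.99 to 1.00), and miR-425-5p, miR-130a-3p and miR-144-5p least (r -0.99, -0.98 and -0.98). These 6 points share the scaling in which D0 had the lowest factors.

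Between libraries of the same day, miR-1a-3p rose and fell with the mean of miR-208a-3p and miR-499-5p in HCs, FBs and ECs but not in CMs. With the mean of each day subtracted, Pearson's r over the 24 libraries was 0.84 in HCs (adjusted permutation p = 0.00016), 0.75 in FBs (0.0011), 0.56 in ECs (0.022) and -0.28 in CMs (0.095), with adjustment over the 4 cell types. Spearman's rho was 0.86, 0.67, 0.61 and -0.42, with adjusted permutation p of 0.00012, 0.0036, 0.0082 and 0.038. Without the 2 libraries farthest from the median of the other muscle miRNAs, r was 0.83, 0.61, 0.32 and -0.37. In ECs the permutation p was then 0.21, so the relation there no longer passed, though r stayed above 0. Leaving out the farthest libraries also narrows the range over which r is taken. All values are log2 CPM of shared libraries, in which a miRNA with a large share lowers the others.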

How the data were processed

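Small RNA-seq of 96 libraries was analysed (4 cell types, 6 days, 4 pools each). Adaptor trimming and a length cut were applied by the authors, who aligned what was left to the mature sequences and then the hairpins of miRBase v21 with the nf-core smrnaseq pipeline. The submitters' processing notes name Trim Galore, Bowtie2, SAMtools and mm10. Versions, strand and multi-alignment settings are not given in the sources used here. The deposited values are raw counts per mature miRNA or hairpin, 2 tables per library and 192 in all. The line for reads with no match, 25.6 to 83.0% of each mature table, entered neither library sizes nor tests. CPM is counts per 1000000 mature counts.

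Groups followed the labels. The authors left an unnamed library each of ECs at D28, HCs at D0 and FBs at D0 out of their analyses. All libraries were kept here, and the one with the lowest mean Spearman correlation to its group was left out as an alternative. Days were tested against D0 within each cell type, and cell types and differences of changes on all 96 libraries, with edgeR 4.0.16 in R 4.3.3 (TMM, filterByExpr, quasi-likelihood test, Benjamini-Hochberg over all miRNAs tested, threshold 0.05). The filter kept 484 miRNAs and 5 members in CMs, 421 and 4 in ECs, 563 and 3 in FBs, 608 and 5 in HCs, and 712 and 6 over all. A member that passed through the group where it is high had to differ, so counts of members and the p-values of such members are descriptions. On simulated counts for CMs at D7 (484 miRNAs), the test called 51.0% of changes of 1 and 92.0% of changes of 2 on the log2 scale, and 1.06% of unchanged miRNAs. The simulated libraries shared a common mean profile and held as many rises as falls. These rates therefore do not cover a shift in composition like that seen in the TMM factors of the CM libraries.

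Ratios of counts (pseudocount 0.5, at least 10 counts of each entry in every library compared) were tested with a two-sided exact permutation test over 70 arrangements. Relations between libraries used 100000 permutations within days. Alternatives were DESeq2 1.42.0, library size alone, library size without the members, no filter, the replicate number as a block, only the 2 days compared, libraries left out, a pseudocount of 5, and TMM values in the relations. Sequences came from RefSeq and positions from GENCODE vM21. Python 3.11.15, numpy 2.4.6, pandas 2.3.3 and scipy 1.17.1 were used.

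The members, lists, tests and alternatives were chosen with earlier results of these data known. Named were all members, the muscle and marker lists, and the miRNAs with the most similar pattern by Pearson's r (5 each over 24 group means for miR-1a-3p and miR-206-3p, and the 5 highest and 3 lowest over the 6 CM day means). The contrast of FBs with the other cell types, the minimum of 5 counts for miR-206-3p in FBs, the hairpin test and the level above the CM ratio were added after seeing the data.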

Additional observations from a re-analysis of the deposited data

Results flagged for a closer look

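In groups of 4 libraries, 72 sets of values of miR-1a-3p, miR-1b-5p and miR-206-3p were searched for a library whose gap to the nearest other was large for the group's range (Dixon's test, 95% limit). Chance gives about 1 such set in 20, so the few flags below are about as many as chance alone would give. The miR-1a-3p level of ECs at D3 was 160011 CPM in replicate 1, against 81293 to 89641 CPM in the others, and miR-206-3p in the same library was 176 CPM, against 76.5 to 90.5 CPM. miR-1a-3p in ECs at D14 was 19998 CPM in replicate 4, against 48273 to 52694 CPM. miR-206-3p in CMs at D28 was 291 CPM in replicate 1, against 216.3 to 222.5 CPM.

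Changes of the same member differed between cell types. On the log2 TMM scale the change of miR-1a-3p in CMs minus the mean change of the other cell types was -1.24 at D3, -1.11 at D7 and -2.27 at D14. The change of miR-206-3p in FBs minus that of the others was 3.12, 3.70, 3.27 and 1.70 on D3, D7, D14 and D28. Each passed edgeR's quasi-likelihood test of the difference itself, and the miR-1a-3p differences were lost with library size as the only scaling.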

How the results depend on the processing

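Over all alternatives 3997 values kept their direction and their side of the threshold, or moved by less than the replicate SD, 101 lost a call, 39 gained one, 69 turned direction and 41 values without a test moved further. The FB calls of miR-206-3p on D3, D7 and D14 held under each alternative, and so did those of miR-1a-3p in CMs on D3, D7, D14 and D28. For miR-1a-3p (meant where no member is named) and for miR-206-3p in FBs, the log2 changes that lost or gained a call are given here, and for all members those that turned direction. For the other members, calls lost were 8 with library size alone, 8 with library size without the members, 7 at D0 alone, 2 each with the replicate block and with only the 2 days compared, and 1 each with DESeq2, without the filter and without the farthest replicates. Calls gained were 6, 4, 0, 1, 2, 2, 4 and 0 under the same settings. With library size alone CM D1 was -0.21, HC D1 -0.26 and FB D1 0.086, CMs minus the others was 0.0027, 0.040, 0.56, -0.049 and 0.93 on the 5 days, miR-206-3p was 0.18 in FBs at D1 and 0.092 in CMs minus the others at D28, miR-1b-5p in CMs minus the others was 0.050 for D3 and 0.43 for D7, miR-1b-3p in CMs was -0.20 against ECs, -0.28 against FBs and -1.96 against HCs, and miR-1a-1-5p was 1.61 in CMs at D3. miR-1b-3p in CMs against HCs was -0.88 with library size without the members, -0.21 without the filter, -0.27 at D0 alone and -0.18 with DESeq2. With library size without the members HC D1 was -0.28 and FB D1 0.086, CMs minus the others was -0.76 for D3, -0.34 for D7 and 0.24 for D28, miR-206-3p in FBs at D1 was 0.18, and miR-1a-1-5p in CMs at D3 was 0.75. DESeq2 gave CMs minus the others at D1 -1.12, HC D1 -0.41, EC D7 -1.03 and EC D28 -0.84, and for EC D3 -0.082 for miR-1a-3p, -0.076 for miR-206-3p and -0.095 for miR-1b-5p, with 0.011 for miR-206-3p in FBs at D1. Without the filter FB D28 was -0.84 and EC D7 -0.99, the same 3 members at EC D3 were -0.057, -0.051 and -0.071, and miR-206-3p in FBs at D1 was 0.066. With only the 2 days compared CM D1 was -1.26, EC D7 -1.02, EC D3 -0.055, -0.040 and -0.066, and miR-206-3p in FBs at D1 was 0.041. Without the farthest replicates EC D28 was -0.75, EC D7 -1.02, and miR-206-3p in FBs at D1 was 0.01. At D0 alone ECs minus HCs was 0.69. With a pseudocount of 5 the ratio of miR-1a-3p to miR-133a-3p in HCs was 0.047 for D14 and 0.052 for D28, and that of miR-1b-5p to miR-1a-3p in HCs at D1 was -0.0037.

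With 1 library left out in turn, miR-1a-3p in CMs minus the others ranged from -1.41 to -1.01 for D3 and from -1.45 to -0.89 for D7. In ECs it ranged from -0.29 to 0.13 for D3, -1.22 to -0.81 for D7, -1.69 to -1.16 for D14 and -1.39 to -0.75 for D28, in FBs from -0.35 to 0.15 for D1 and -1.15 to -0.11 for D14, and in HCs from -0.81 to -0.43 for D1. At EC D3 miR-1b-5p ranged from -0.35 to 0.15 and miR-206-3p from -0.34 to 0.16, and miR-206-3p in FBs from -0.22 to 0.29 for D1 and -0.0098 to 0.50 for D28. In CMs miR-1a-1-5p ranged from -0.65 to 0.16 for D3 and -0.079 to 0.66 for D7, and miR-1a-2-5p from -0.058 to 0.94 for D1, and miR-1b-3p in CMs against HCs from -0.029 to 0.24. Replicate numbers recur in all groups. Among 20 comparisons of a day with D0, same-numbered libraries deviated together (r over 0.1) in all 4 pairs for FB D0 and D1 alone. Same-day libraries of different cell types were made from the same mice. Of their 24 same-numbered pairs, 7 to 12 did so in each pair of cell types (r from -0.67 to 0.52). Differently numbered pairs were not compared, so these values cannot show whether equal numbers mark the same mice. The numbers were taken as names. With the replicate block EC D28 was -0.92 (adjusted p = 0.058), and at EC D3 miR-206-3p was -0.0026 and miR-1b-5p -0.022. With day and replicate number as the block across cell types, miR-206-3p in CMs minus the others gained a call at D1 (-1.0, adjusted p = 0.039), miR-1a-2-5p in FBs against HCs lost its call (-0.66, adjusted p = 0.062), and the other calls of members between cell types and of these contrasts held. Why these values moved was not tested. Depth limits the 5p arms, which had 0 to 3 counts in many libraries, and miR-206-3p in FBs at D0.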
